A study of Mus musculus with 2 samples.

Results

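Heat shock proteins and endoplasmic reticulum (ER) chaperones were compared between mature hepatocytes (MHs) and Sox9+EpCAM- biphenotypic hepatocytes of the mouse. The genes were taken by name from the array design: the Hsp90 family, the HspA, HspB, HspD, HspE and HspH families, the DnaJ proteins of classes A, B and C, the Pdia protein disulfide isomerases, the ER chaperones Hyou1, Calr and Canx, the transcription factors Hsf1, Xbp1, Atf4, Atf6 and Ddit3, and the adaptors Bag3 and Sqstm1. This gave 86 of 30175 genes on the array, read by 127 probes in 145 spots. By their known location, 47 were counted as cytosolic or nuclear, 22 as ER and 10 as mitochondrial proteins, beside 5 regulators and 2 adaptors. Hspa1b, the near-identical neighbour of Hspa1a, is not a gene name of the design and was not analysed here.

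The study asked how biphenotypic hepatocytes, which carry traits of hepatocytes and of bile duct cells, differ from MHs. The methods name Sox9-EGFP mice, a strain whose green fluorescent reporter follows the Sox9 gene, as the source of both healthy and injured livers. MHs were purified on a Percoll gradient from healthy livers. Sox9+EpCAM- cells were sorted by FACS as GFP-positive, EpCAM-negative cells from livers of Sox9-EGFP mice after feeding with DDC, a compound that causes porphyria and injures bile ducts and hepatocytes over time. One array was hybridised for each group, so the injury, the reporter gate and the way of purification differ together between the groups and cannot be told apart. The labels give both samples as male and do not give the number of mice or their age.

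Chaperones bind unfolded proteins and let them fold, assemble or be degraded. In the cytosol, Hsp70 proteins work in cycles that J-domain proteins (the Dnaj genes) start and nucleotide exchange factors such as Hsph1 and Bag3 end, Hsp90 proteins finish the folding of signalling proteins, and small heat shock proteins (the Hspb genes) hold aggregating proteins; HSF1 switches on the inducible members. In the ER, BiP (Hspa5), GRP94 (Hsp90b1), the lectin chaperones and the disulfide isomerases fold secreted proteins, which hepatocytes make in large amounts, and the unfolded protein response adjusts them through ATF6, XBP1 and the ATF4 to CHOP (Ddit3) branch. DDC-fed livers are known for Mallory-Denk bodies, hepatocyte inclusions that hold keratins, ubiquitin and p62 (Sqstm1).

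Each spot gives 1 fluorescence intensity. Among 43020 spots, controls left out, 64.0% of those for MHs and 74.8% of those for Sox9+EpCAM- cells were well above background, and 0 were saturated. The 75th percentile of the intensities was 741 for MHs and 1110 for Sox9+EpCAM- cells, and log2 differences (Sox9+EpCAM- minus MH) were taken after scaling each array to it, a shift of 0.58. With 1 array per group there is no SD between samples and no test, so that precision is limited by the number of arrays. Spots of the same probe on an array differed with a median SD of 0.08 on the log2 scale, and the error that the scanner software gives for the difference of a member probe was 0.20 to 0.37 on the log2 scale for probes well above background on both arrays. For member probes with a bound it was 0.36 to 1.45. Both cover the reading of an array and not the variation between mice. Against the labels, which give both as male, Xist had an intensity of 1940 in MHs and was not well above background in Sox9+EpCAM- cells, whereas 0 of 5 probes of Y-linked genes reached that level in MHs and 4 did in Sox9+EpCAM- cells. The sex that these probes show thus also differed with the groups and cannot be told apart from them.

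Of the 86 genes, 75 were well above background in both groups, 7 in Sox9+EpCAM- cells alone and 0 in MHs alone. Dnajb13, Dnajc14, Dnajc5g and Hspa12a were above background on neither array and have no difference. For the 7 genes without an MH level the difference is a bound, taken against the probe's own MH signal or, where that was lower, against 27.8, the weakest MH signal that still counted as well above background. Of the 82 genes with a value, 17 (20.7%) were higher in Sox9+EpCAM- cells by 2-fold or more, against 14.2% of 23417 genes, and 6 (7.32%) were at least 2-fold lower, against 16.7% of these genes. At a size of 4-fold, 9 were higher (11.0%, against 5.59% of the genes) and 2 were lower (2.44%, against 5.57%). With normexp correction, which lifts low signals, 14 genes were higher and 4 lower at 2-fold, against 8.91% and 13.5% of the genes, and 5 and 1 at 4-fold, against 2.61% and 2.82%. The split of 17 higher and 6 lower genes moved with the scaling, as did the shares over the genes. It was 21 and 4 after quantile normalization (25.6% and 4.88%, against 13.7% and 16.8% of the genes). Without scaling it was 27 and 4 (32.9% and 4.88%, against 26.6% and 8.62%), and with scaling to Gapdh 17 and 11 (20.7% and 13.4%, against 12.5% and 19.7%). In the table that the authors scaled to the array median it was 15 and 16 (18.3% and 19.5%, against 11.9% and 21.0%), so that the share of lower members was near that of the genes. Of the 17 higher genes, 6 have a bound and passed through the Sox9+EpCAM- array alone. Among the 75 members well above background on both arrays, 11 were higher and 6 lower (14.7% and 8%, against 11.8% and 17.4% of 19232 genes), and at 4-fold 5 and 2 (6.67% and 2.67%, against 3.94% and 4.75%). Of the 17 and 6 genes, 15 and 4 had a difference of at least 2-fold the same way under all 6 scalings.

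The median difference was -0.09 over the members and -0.04 over the genes with a value. The compartments differed in where their members lay. The 44 cytosolic genes with a value had a median of 0.14, with 11 at least 2-fold higher (25%) and 4 lower (9.09%). Of the 11, 5 have a bound, and the 38 cytosolic genes above background on both arrays had a median of -0.05, with 6 higher and 4 lower (15.8% and 10.5%). The 21 ER genes had a median of -0.47, with 2 higher (9.52%) and 0 lower, and the 10 mitochondrial genes had a median of -0.67, with 0 higher and 1 lower (10%), against 14.2% and 16.7% of the genes. In the authors' table the counts were 10 higher and 8 lower for the cytosol (22.7% and 18.2%), 1 and 4 for the ER (4.76% and 19.0%) and 0 and 3 for mitochondria (0% and 30%), against 11.9% and 21.0% of the genes. With scaling to Gapdh the ER had 2 higher and 3 lower (9.52% and 14.3%, against 12.5% and 19.7%). The share of lower ER genes thus lay below that of the genes in each of these, near it in the authors' table. Without scaling these medians were 0.72, 0.11 and -0.09 and that of the genes 0.41, so the ER median was below 0 or above it depending on the scaling, and the cytosolic median was -0.04 in the authors' table. Measured from the median of the genes, the ER median lay between -0.46 and -0.15 and the mitochondrial median between -0.66 and -0.45 under 12 settings of the processing, and the cytosolic median lay between 0.11 and 0.48.

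**Figure D1:**
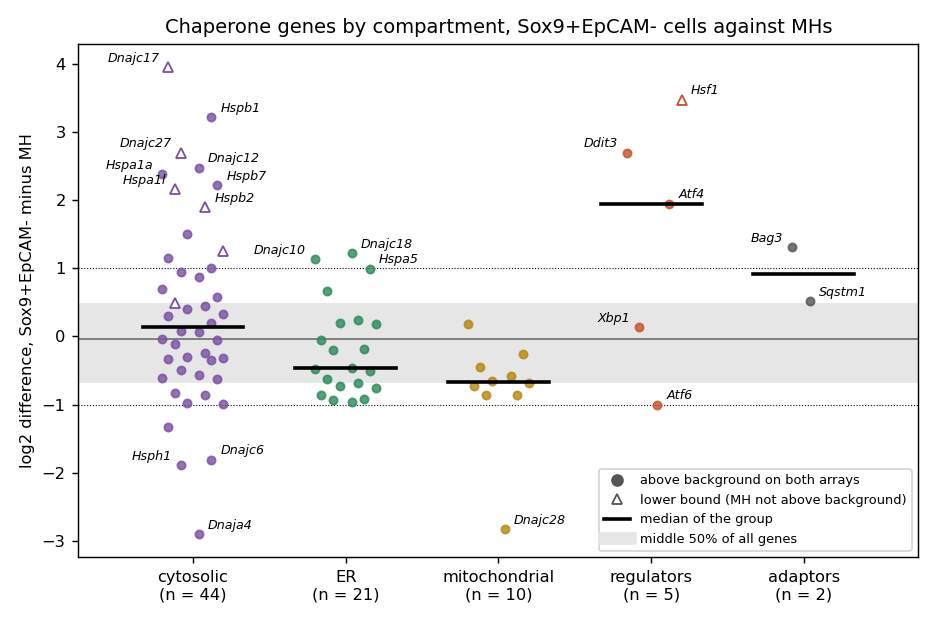
Log2 difference between Sox9+EpCAM- cells and MHs (vertical axis) for the 82 genes with a value, by the location of their protein, with 1 array per group. Circles are genes above background on both arrays, open triangles are lower bounds, black bars are group medians, the grey band holds the middle 50% of genes and dotted lines mark 2-fold; cytosolic genes spread from -2.90 to 3.94, whereas 19 of 21 ER genes lie within 2-fold (16 of 21 in the authors' table).

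Among the regulators, 3 of 5 were at least 2-fold higher, against 14.2% of the genes, and 2 of the 4 above background on both arrays, against 11.8%. Ddit3 encodes CHOP, the transcription factor that ATF4 induces under ER stress. Its probe had intensities of 3130 in MHs and 30300 in Sox9+EpCAM- cells, 6.46-fold higher with a log2 difference of 2.69. It was bright on both arrays, and the difference was 2.51 to 3.28 across the settings. Atf4, the factor upstream of it, has a pair of probes. The brighter had intensities of 538 in MHs and 3100 in Sox9+EpCAM- cells, a difference of 1.94, and the other had 206 and 2590, a difference of 3.07. Both probes were higher in Sox9+EpCAM- cells by more than 3-fold. Hsf1, the regulator of the heat shock response, had an intensity of 12.5 in MHs, not well above background, and one of 461 in Sox9+EpCAM- cells, which makes it at least 11.1-fold higher, or 3.47 on the log2 scale. With normexp background correction that bound was 2.17. Since these probes carry the result for the regulators, their starts are shown as the array design lists them, the first 30 bases of 60, 5′ to 3′, with no part in capitals. The Ddit3 probe lies at chr10:126732518-126732821 (mm9, plus strand), a span longer than the probe, so that its bases are not contiguous in the genome, and the Atf4 probes lie at chr15:80086639-80086698 and chr15:80087902-80087961 (mm9, plus strand).
Ddit3: ccccaggaaacgaagaggaagaatcaaaaa
Atf4, brighter probe: tcttcacgaaatccagcagcagtgttgctg
Atf4, other probe: ggtgctttgtgcttgtacatagtcttgtgt

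The other regulators of the ER stress response did not share this size. Xbp1, whose spliced form drives ER chaperone genes, had intensities of 596 and 981, a difference of 0.14. Atf6, the membrane-bound factor of the ATF6 branch, had 1020 and 763, 2-fold lower, with a difference of -0.42 without scaling and of -0.93 with normexp correction. A probe gives the amount of transcript it binds, so that the splicing of Xbp1 and the cleavage of ATF6 were not measured.

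Genes around ATF4 that the naming rule did not take were read from a list of 16 genes of ER stress signalling and ATF4 targets, of which 15 had a value. Of these, 4 (26.7%) were at least 2-fold higher and 3 (20%) lower, against 14.2% and 16.7% of the genes, with a median of 0.12, which was -0.06 in the authors' table and -0.01 with scaling to Gapdh. The counts were 3 and 3 in the authors' table (20% each, against 11.9% and 21.0%). They were 5 and 1 without scaling (33.3% and 6.67%, against 26.6% and 8.62%) and 3 and 2 with normexp correction (20% and 13.3%, against 8.91% and 13.5%). Atf3 was 23.5-fold higher, from 2730 to 96300, and Trib3, a pseudokinase induced by ATF4 and CHOP, was 10.4-fold higher, from 181 to 2830. Chac1, a glutathione-degrading enzyme and ATF4 target, was not well above background in MHs and had 173 in Sox9+EpCAM- cells, at least 4.15-fold higher. Atf5 was 2.23-fold higher, from 6990 to 23400, a difference of 1.16, the smallest of the 4 that were higher. The list also held targets that were lower: Asns, asparagine synthetase, had 110 and 73.3, a difference of -1.17, and Ddit4 had 383 and 104, a difference of -2.46. Atf6b had a difference of -1.30. Ppp1r15a, which encodes the phosphatase subunit GADD34 downstream of CHOP, had a difference of 0.44, and Ern1, the sensor IRE1, of 0.01. The sensor kinase gene Eif2ak3 was above background on neither array.

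Immediate early genes, which are induced by stimulation and by cell isolation, were also higher. Of a list of 10 (Fos, Fosb, Jun, Junb, Egr1, Atf3, Ier2, Ier3, Zfp36 and Dusp1), 9 were higher in Sox9+EpCAM- cells by 4-fold or more (90%, against 5.59% of the genes). The median difference of the list was 4.48. Their summed level, in multiples of the 75th percentile, was 35.6 in MHs and 391 in Sox9+EpCAM- cells. Atf3 stands in both lists. Their part in the levels of Ddit3, Atf4, Hspa1a, Dnajb1 and Hspb1 was not tested.

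**Figure D2:**
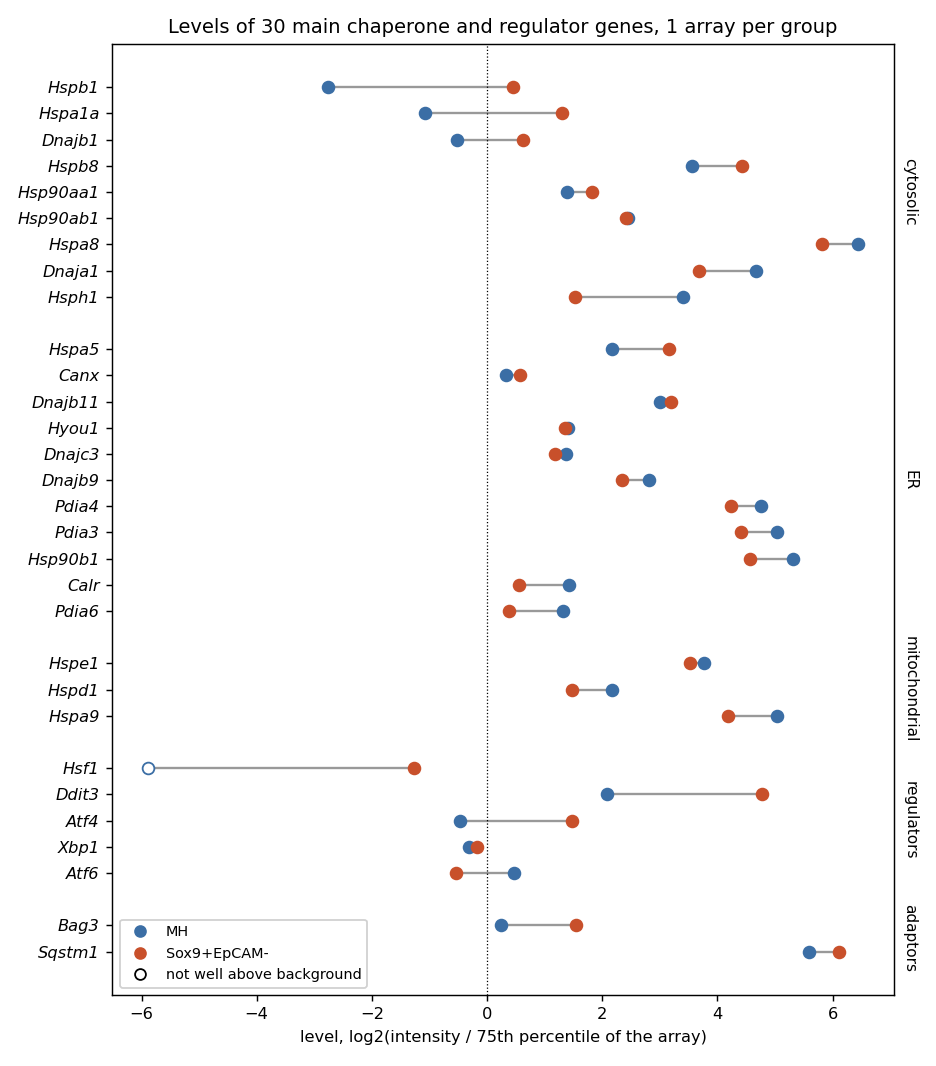
Level of 30 main genes on the MH array (blue) and the Sox9+EpCAM- array (orange), as log2 of the intensity over the 75th percentile of the array (horizontal axis), with the brightest probe of each gene and 1 array per group; the open circle is a signal not well above background, and levels are to be compared within a row only. The largest gaps to the right are those of Hsf1, Hspb1, Ddit3, Hspa1a and Atf4, and the largest gap to the left is that of Hsph1.

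Among the inducible chaperones of the cytosol, Hspb1 and Hspa1a were higher. Hspb1 encodes the small heat shock protein Hsp27. Its only probe, at chr5:136365366-136365425 (mm9, plus strand), had an intensity of 109 in MHs and 1510 in Sox9+EpCAM- cells, 9.25-fold higher with a log2 difference of 3.21. Hspa1a encodes the stress-inducible Hsp70. Its probe, at chr17:35107117-35107176 (mm9, minus strand), had intensities of 352 and 2740, a difference of 2.38 or 5.20-fold. A transcript of Hspa1b could bind the same probe, so that the value may hold both genes. The starts of both probes are shown because they are the only readings of these genes, again 30 of 60 bases with no part in capitals.
Hspb1: gctcttttgatacatacatttacctgctgt
Hspa1a: tgacaagaagaaggtgctggacaagtgcca

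Dnajb1, the J protein that is co-induced with Hspa1a, was 2.22-fold higher, from 517 to 1720. Bag3, which releases clients from Hsp70 and leads them to autophagy, was 2.47-fold higher, from 874 to 3240. Hspb8, the small heat shock protein that binds BAG3, had 8780 and 24000, a difference of 0.87. Dnajb1 and Hspb8 were below and above 2-fold depending on the scaling: Dnajb1 had a difference of 0.97 in the authors' table, and Hspb8 one of 1.25 after quantile normalization.

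Not all inducible chaperones were higher. Hsph1, the Hsp110 protein that exchanges the nucleotide of Hsp70, was 3.70-fold lower, from 7870 to 3190, and its other probe was 3.24-fold lower, from 4590 to 2120. Both probes thus gave the opposite direction to Hspa1a and Dnajb1, and the brighter was at least 2-fold lower in all 6 scalings. Dnaja1, a J protein of class A, had 18800 and 14200, a difference of -0.99, but its dim probe had 83.4 and 196, a difference of 0.65. Hsp90aa1, the inducible Hsp90, had 1930 and 3920, a difference of 0.44. Hsp90ab1, the constitutive one, had 4040 and 5880, a difference of -0.04.

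Hspa8, the constitutive Hsc70, has 3 probes with intensities of 64400, 62900 and 22700 in MHs and 62900, 60800 and 25700 in Sox9+EpCAM- cells. Its differences were -0.62, -0.63 and -0.40, within 0.23 of each other. Over the 11 Hsp70 genes with a value the median was 0.69, with 3 at least 2-fold higher and 0 lower (27.3% and 0%, against 14.2% and 16.7% of the genes). Of the 3, 2 have a bound and passed through the Sox9+EpCAM- array alone, and of the 8 genes above background on both arrays 1 was higher (12.5%, against 11.8% of the genes). The counts over the 11 genes were 8 and 0 without scaling, where 26.6% of the genes were higher, and 3 and 1 in the authors' table (27.3% and 9.09%, against 11.9% and 21.0% of the genes). Besides Hspa1a, the 3 genes were Hspa1l, a testis-enriched Hsp70 with 33.6 in MHs, not well above background, and 225 in Sox9+EpCAM- cells, at least 4.47-fold higher, and Hspa2, at least 2.39-fold higher. With normexp correction both were below 2-fold, with differences of 0.90 and 0.40.

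The small heat shock proteins had a median of 0.72 over 8 genes. Of these, 3 were at least 2-fold higher and 0 lower (37.5% and 0%, against 14.2% and 16.7% of the genes). Of the 7 above background on both arrays 2 were higher (28.6%, against 11.8% of the genes), and without scaling 5 of 8 were, where 26.6% of the genes were higher. Hspb7, a small heat shock protein of heart and muscle, is printed in 10 spots, and their mean was 80.7 in MHs and 558 in Sox9+EpCAM- cells, 4.63-fold higher. These spots had an SD of 0.13 in MHs and 0.07 in Sox9+EpCAM- cells on the log2 scale, against a difference of 2.21. Hspb2 was not well above background in MHs and was at least 3.72-fold higher, at 155. With normexp correction Hspb2 had a difference of 0.69, below 2-fold, and Hspb7 one of 1.54, so that 2 of the 3 genes remained past 2-fold. Hspb3 had a difference of -0.24, Hspb11 of 0.07, Hspb9 of 0.30 and Hspb6 of 0.58.

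Hspb1, Hspb2, Hspb6 and Hspb7 are abundant in muscle, and markers of fibroblasts and stellate cells were higher on the Sox9+EpCAM- array. Of 10 fibroblast and stellate cell markers 9 had a value, with a median difference of 3.95 and 6 at least 4-fold higher (66.7%, against 5.59% of the genes). Of these, Lum, Eln and Mgp have a bound and passed through the Sox9+EpCAM- array alone. The 6 markers above background on both arrays had a median of 2.18, with 3 at least 2-fold higher (50%, against 11.8% of the genes). Col3a1 had intensities of 175 and 22300, and Eln and Mgp were not well above background in MHs and had 5570 and 5390 in Sox9+EpCAM- cells. Acta2 and Des, which mark contractile cells, had differences of 0.42 and 0.09, and Pdgfrb was above background on neither array. The list's summed level was 12.2 in MHs and 54.4 in Sox9+EpCAM- cells. On a bulk array, fewer cells of a type and less RNA per cell cannot be told apart, and the part of such cells in the Hspb values was not tested.

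Other cytosolic J proteins differed widely and in both directions. Dnajc17, a nuclear J protein linked to splicing, was at least 15.4-fold higher, with 6.01 in MHs, not well above background, and 641 in Sox9+EpCAM- cells. Dnajc27, which joins a J domain to a small GTPase domain, was at least 6.46-fold higher, from 6.31, not well above background, to 269. Dnajc12, a J protein known for its part in the folding of aromatic amino acid hydroxylases, was 5.55-fold higher, from 52.1 to 433. Dnajb3 was 2.84-fold higher, from 64.6 to 275. These genes were dim in MHs, and with normexp correction the log2 differences were 2.49 for Dnajc17, 1.36 for Dnajc27, 1.58 for Dnajc12 and 0.76 for Dnajb3, the last below 2-fold.

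Dnaja4, a class A J protein, was 7.46-fold lower by its brighter probe, from 275 to 55.2. Its other probe was not well above background in MHs and had 56.7 in Sox9+EpCAM- cells, at least 1.36-fold higher, so that the probes of Dnaja4 do not give a common direction. Dnajc6, the clathrin-uncoating J protein auxilin, was 3.50-fold lower, from 51.9 to 22.2, and was dim on both arrays. With normexp correction Dnajc6 was no longer past 2-fold, with a difference of -0.79, and Dnaja4 had one of -1.92. All 4 class A genes had differences below 0, from -2.90 to -0.56, but Dnaja2 was above 0 without scaling and its dim probe was 2.53-fold higher. In class C, 5 of 26 genes were at least 2-fold higher (19.2%) and 2 lower (7.69%), against 14.2% and 16.7% of the genes, with a median of -0.33, which was 0.25 without scaling. The authors' values gave 4 higher and 6 lower (15.4% and 23.1%, against 11.9% and 21.0%). Dnajc17 and Dnajc27 have a bound and passed through the Sox9+EpCAM- array alone. Of the 24 class C genes above background on both arrays, 3 were higher and 2 lower (12.5% and 8.33%, against 11.8% and 17.4%). The share of higher genes was then near that of the genes.

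The ER chaperones differed less. Hspa5, which encodes BiP, the Hsp70 of the ER lumen and the sensor's partner in the unfolded protein response, had intensities of 3340 and 9950, a difference of 0.99 or 1.99-fold. It was just past 2-fold with normexp correction, past it after quantile normalization and without scaling (1.31 and 1.57), and below it with scaling to Gapdh and in the authors' table (0.86 and 0.81). The other main ER chaperones had differences from -0.94 to 0.23. Hsp90b1, the Hsp90 of the ER, had 29300 and 26400, a difference of -0.73. Hyou1, the exchange factor of BiP, had 1960 and 2820, a difference of -0.06. Of the lectin chaperones, which bind glycoproteins, Calr had 1980 and 1630, a difference of -0.86, and Canx had 931 and 1640, a difference of 0.23. The raw intensities of Hsp90b1 and Canx thus ran in opposite directions.

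Of the 5 disulfide isomerases, 4 had differences below 0, 0 of them by 2-fold, against 16.7% of the genes, and the median was -0.63. With scaling to Gapdh 2 of the 5, Pdia5 and Pdia6, were at least 2-fold lower, at -1.05 and -1.07 (40%, against 19.7% of the genes). Both were at least 2-fold lower in the authors' table as well, where 21.0% of the genes were. Pdia3, which works with the lectin chaperones, had 24400 and 23600, a difference of -0.63, and Pdia4 had 20000 and 21000, a difference of -0.51. Pdia6 had 1840 and 1440, a difference of -0.94, and its dimmer probe was 3.32-fold lower, from 463 to 209. Without scaling the differences of Pdia3 and Pdia4 were near 0, as their intensities show, and the family median was -0.05. Among the J proteins of BiP, Dnajb11 (ERdj3) had 5970 and 10200, a difference of 0.19, and Dnajc3 (p58IPK) had 1910 and 2500, a difference of -0.19. Dnajb9 (ERdj4), a target of XBP1, had 5200 and 5630, a difference of -0.47, and its other probe one of 0.15. Dnajc10 (ERdj5), a disulfide reductase, was 2.19-fold higher by its brighter probe, from 563 to 1850, whereas its other probe had 542 and 624, a difference of -0.38. Dnajc18 was 2.32-fold higher, from 157 to 546. Neither call of these ER genes held throughout, since Dnajc18 had a difference of 0.91 with normexp correction and Dnajc10 one of 0.96 in the authors' table.

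The promoters of 69 members, from 250 bases before to 50 after the transcript start, were searched for the sites of the regulators in the RefSeq sequences of GRCm38.p6, on both strands. The ER stress element (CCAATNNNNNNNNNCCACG), which ATF6 and NF-Y bind, was found in 6 of 19 ER members with a promoter and in 0 of 38 cytosolic ones, against 0.137% of the promoters of 27025 gene symbols. The 6 genes were Hspa5, Hsp90b1 (a pair of matches), Calr, Canx, Pdia6 and Dnajc3. The matches are shown with 15 bases on each side, read along the gene, in lower case with the element in capitals; where it lies on the other strand its reverse complement is in capitals. With these flanking bases they lie at chr2:34772010-34772058 (plus strand) for Hspa5, chr10:86705518-86705566 and chr10:86705623-86705671 (minus strand) for Hsp90b1, chr8:84847060-84847108 (minus strand) for Calr, chr11:50325785-50325833 (minus strand) for Canx, chr12:17266476-17266524 (plus strand) for Pdia6 and chr14:118937812-118937860 (plus strand) for Dnajc3.
Hspa5: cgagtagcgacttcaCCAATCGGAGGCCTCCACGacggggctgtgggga
Hsp90b1, nearer the start: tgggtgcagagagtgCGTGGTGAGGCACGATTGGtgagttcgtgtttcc
Hsp90b1, farther from the start: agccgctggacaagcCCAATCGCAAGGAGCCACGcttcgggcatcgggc
Calr: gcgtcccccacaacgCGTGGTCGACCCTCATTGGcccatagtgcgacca
Canx: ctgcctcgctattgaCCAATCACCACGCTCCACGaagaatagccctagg
Pdia6: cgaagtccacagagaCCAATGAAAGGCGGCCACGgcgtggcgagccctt
Dnajc3: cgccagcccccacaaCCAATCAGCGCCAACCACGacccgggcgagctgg

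The differences of these 6 genes ran from -0.94 (Pdia6) to 0.99 (Hspa5), with a median of -0.46, and the 12 ER genes with a promoter but no match and with a value had a median of -0.49. Genes with the element thus lay in the range of those without it. The shorter UPR element (TGACGTGG), which XBP1 and ATF6 bind, was found in the promoter of 1 member, Dnajc25, against 0.714% of symbols. The composite element that ATF4 binds (TGATGNAAT) was found in 0 members, against 1.08% of symbols. A match is a string of letters in this window, and binding was not measured.

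The heat shock element that HSF1 binds (GAANNTTCNNGAA or TTCNNGAANNTTC) was found in 4 of 69 member promoters, against 0.662% of symbols. These were Hspd1, Hspe1, Dnajb6 and Hsph1. Hspd1 and Hspe1 stand head to head and share 1 promoter. In it a pair of overlapping matches, with 15 bases on each side, lies at chr1:55088044-55088091 (GRCm38.p6). The line of Hspd1 marks one of them and the line of Hspe1, read from the other strand, marks the other. The match of Dnajb6, with 15 bases on each side, lies at chr5:29735837-29735879 (GRCm38.p6, plus strand). The match of Hsph1 lies past its start and is not shown. The sequences are read along each gene, with the element in capitals and 15 bases on each side.
Hspd1: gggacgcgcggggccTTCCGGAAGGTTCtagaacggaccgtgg
Hspe1: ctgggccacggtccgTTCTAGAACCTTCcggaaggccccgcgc
Dnajb6: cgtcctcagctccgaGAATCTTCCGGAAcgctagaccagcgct

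All 4 genes with this element had differences below 0 by their brightest probe, except that Hspe1 was at 0.12 after quantile normalization and at 0.33 without scaling. The 2 cytosolic genes with it had a median of -1.61, and the 33 with a promoter and a value but no match had one of 0.33. Hspa1a, Hspb1 and Dnajb1, which were higher, gave no match, and whether each was among the 69 promoters is not given here. The 4 genes thus do not stand for the targets of HSF1. Hspd1, which encodes Hsp60 of the mitochondrial matrix, had 3320 and 3100, a difference of -0.68. Hspe1, its cochaperone Hsp10, had 10100 and 12700, a difference of -0.25, and its other probes had -0.35 and -0.34. Both thus lay within 2-fold. Hspa9, the mitochondrial Hsp70 mortalin, had 24400 and 20100, a difference of -0.86. Dnajc28 was the mitochondrial gene with the largest difference, 7.08-fold lower, from 2710 to 573, and at least 2-fold lower in all 6 scalings.

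Dnajb6, a J protein that keeps keratins and polyglutamine proteins from aggregating, was the only member whose probes were at least 2-fold apart from 0 in opposite directions. It has 4 probes on chr5 (mm9, plus strand). The probes at chr5:30077544-30078952 and chr5:30080099-30080158, which the design assigns to 1 RefSeq transcript, had intensities of 18000 and 11900 in MHs and 10700 and 8540 in Sox9+EpCAM- cells, differences of -1.33 and -1.06. The probes at chr5:30112861-30112920 and chr5:30112855-30112911, assigned to another RefSeq transcript, had 75.5 and 103 in MHs and 1620 and 1910 in Sox9+EpCAM- cells, differences of 3.84 and 3.63. The latter pair shares a stretch of 51 bases, so that they are not independent readings, and lies downstream of the former pair. The bright probes were lower and the dim ones 14.3-fold and 12.4-fold higher. The starts of the probes are shown, 30 of 60 bases with no part in capitals, so that the stretch read in each transcript can be found.
Dnajb6, first transcript: gaagttcaaacaagtagctgaggcatatga
Dnajb6, first transcript, other probe: agtccatttgagtttggcttcacattccgg
Dnajb6, second transcript: caaggaggaatgtattttagtgctactgac
Dnajb6, second transcript, other probe: gaccctcaaggaggaatgtattttagtgct

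Sqstm1, which encodes the autophagy adaptor p62 that gathers ubiquitinated proteins, also differed between its probes. The brighter, at chr11:50015985-50016044 (mm9, minus strand), had 35900 in MHs and 76900 in Sox9+EpCAM- cells, a difference of 0.52, 1.10 without scaling and 1.04 after quantile normalization. The other, at chr11:50012868-50012927 (mm9, minus strand), had 21.7, not well above background, and 1140, at least 27.4-fold higher. It was assigned to an Ensembl transcript of the gene. Both probes were thus brighter on the Sox9+EpCAM- array, by sizes at least 4.26 apart on the log2 scale. The probe starts are shown in the same way.
Sqstm1, brighter probe: tgtcttcaaaagaagtggacccatctacag
Sqstm1, other probe: accccgttaccctgacctgataaatcccat

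Such disagreement was not rare. Of 28 members with at least 2 probes that gave a difference, 15 had probes within 1 log2 unit of each other and 13 did not, and 6 had probes at least 2 units apart. The median range was 0.88. Besides Dnajb6, Sqstm1 and Dnaja4, the 6 were Dnajc21, Dnajc25 and Dnajc11. A dim probe of Dnajc21, assigned to an Ensembl transcript, had 193 in MHs and was not well above background in Sox9+EpCAM- cells, at least 15.7-fold lower, whereas its brightest probe had 4000 and 4270. A dim probe of Dnajc25 was 11.3-fold lower, from 215 to 28.4, while the bright one had 1010 and 1090. In Dnajc11, 1 probe was 4.19-fold higher, from 43.0 to 270, beside a bright one with 4050 and 6860. A dim probe of Dnajb14 was at least 6.52-fold lower, with 80.1 in MHs. No member probe has 20 bases in a row in common with a probe for a different gene, as 7.16% of the probes on the array have. Probes were compared with probes only. Whether a member probe binds the RNA of another gene, such as Hspa1b, was not tested.

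**Figure D3:**
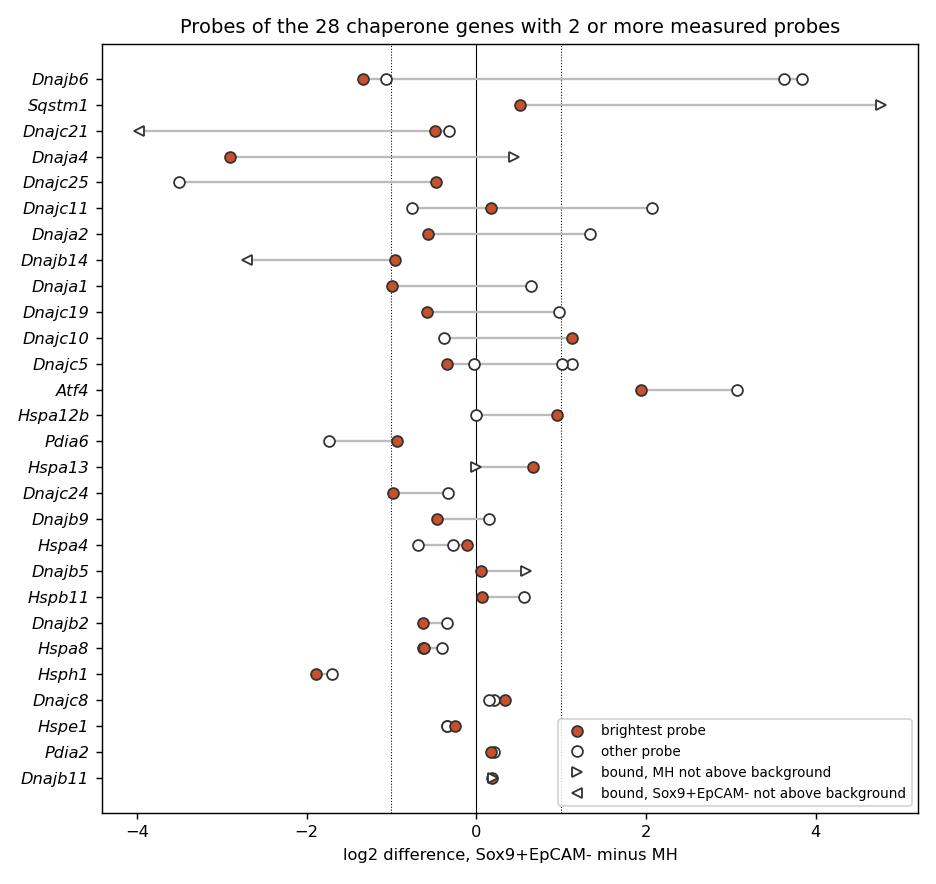
Log2 difference between Sox9+EpCAM- cells and MHs (horizontal axis) for each probe of the 28 genes with at least 2 measured probes, ordered by the distance between them. Filled circles are the brightest probe of a gene, open circles the others and triangles are bounds; the probes of Dnajb6 lie on both sides of the dotted 2-fold lines, whereas those of Hspa8, Hsph1 and Hspe1 lie close together.

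Partners of the chaperones outside these families were read in the same way. Of 25 cytosolic partners (Hsp90 and Hsp70 cochaperones, BAG proteins and the CCT subunits), 1 (4%) was at least 2-fold higher and 5 (20%) were lower, against 14.2% and 16.7% of the genes, with a median of -0.13, which was 0.46 without scaling and 0.07 after quantile normalization. Without scaling the counts were 3 and 1 (12% and 4%, against 26.6% and 8.62% of the genes) and in the authors' table they were 1 and 7 (4% and 28%, against 11.9% and 21.0%). Cdc37, which brings kinases to Hsp90, was 4.15-fold higher, from 148 to 921. Fkbp5 and Fkbp4, the immunophilins of steroid receptor complexes, were 4.54-fold and 2.86-fold lower, from 2160 to 713 and from 8410 to 4410. Hsf2, Bag4 and Ahsa1 were 2.56-fold, 2.28-fold and 2.14-fold lower. Stip1, which links Hsp70 to Hsp90, had a difference of 0.07, and the 8 genes of the CCT ring had differences from -0.50 (Tcp1) to 0.16 (Cct3).

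Of 26 ER partners, 3 (11.5%) were at least 2-fold higher and 6 (23.1%) lower, against the same shares, with a median of -0.38, which was 0.20 without scaling. The counts were 5 and 2 without scaling (19.2% and 7.69%, against 26.6% and 8.62% of the genes), 3 and 3 after quantile normalization (11.5% each, against 13.7% and 16.8%) and 3 and 8 in the authors' table (11.5% and 30.8%, against 11.9% and 21.0%). Fkbp11, a prolyl isomerase of secretory cells, was 5.33-fold higher, from 282 to 2250, and the oxidase gene Ero1lb was 4.33-fold higher, from 583 to 3780. Erp44, which retains ERO1, was not well above background in MHs and was at least 3.55-fold higher. The lower genes were Creld2, 8.55-fold, from 302 to 53.2, Edem1, which takes part in ER-associated degradation, 3.73-fold, from 2090 to 839, and Erp29, Ppib, Sel1l and Txndc5, 2.15-fold to 2.44-fold. Manf, an ER stress-induced secreted protein, had a difference of 0.49, and Sdf2l1 and Herpud1 had -0.53 and -0.99. P4hb, the main disulfide isomerase, had 14800 and 17500, a difference of -0.34.

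**Figure D4:**
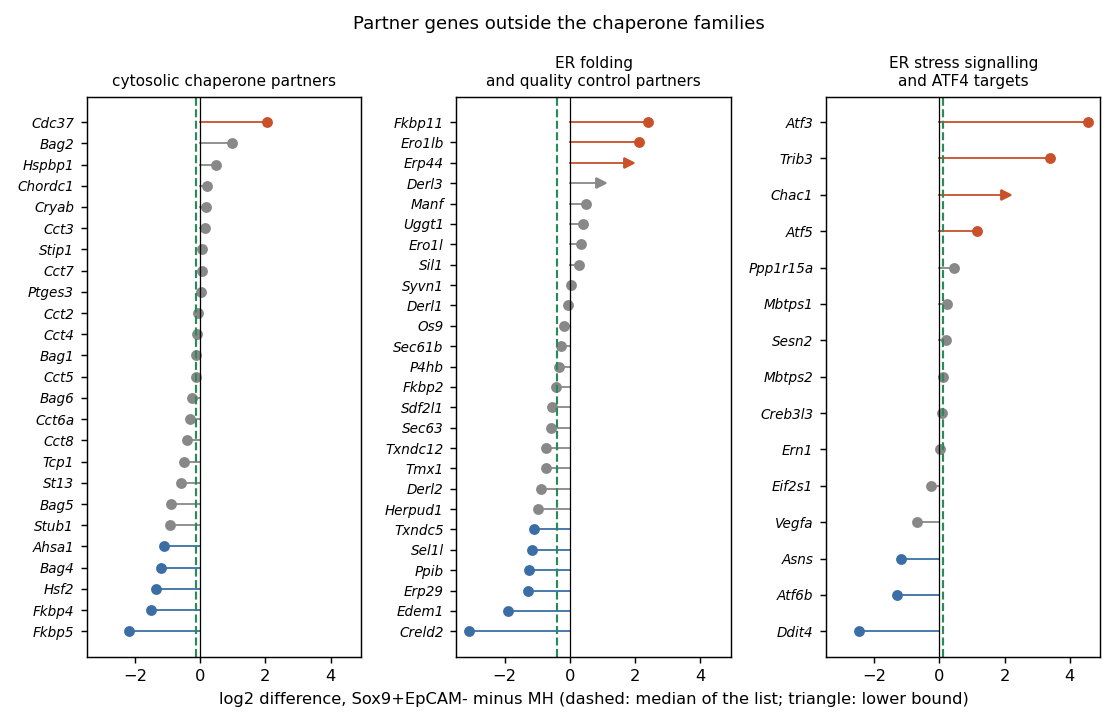
Log2 difference between Sox9+EpCAM- cells and MHs (horizontal axis) for the 25 cytosolic partners, the 26 ER partners and the 15 genes of ER stress signalling with a value, in order of the difference, with 1 array per group. Orange marks genes at least 2-fold higher, blue at least 2-fold lower, triangles are lower bounds and the dashed line is the median of the list, which lies at -0.13, -0.38 and 0.12.

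The samples were also read for the cells their labels name. Of 10 hepatocyte markers, 10 were well above background on both arrays, and Alb had intensities of 207000 and 170000 and Hnf4a of 4990 and 6360. The list had a median difference of -1.15 with 7 genes at least 2-fold lower (70%, against 16.7% of the genes). This count moved with the processing. It was 4 after quantile normalization (40%, against 16.8%, with a median of -0.67) and 4 without scaling (40%, against 8.62%, with a median of -0.57). It was 5 with normexp correction (50%, against 13.5%) and 8 in the authors' table (80%, against 21%). The list's summed level was 1217 in MHs and 513 in Sox9+EpCAM- cells. Of 8 cholangiocyte markers, 3 were at least 2-fold higher and 2 lower (37.5% and 25%, against 14.2% and 16.7% of the genes). Spp1 had 258 and 47000, and Epcam, by which cells were gated out, had 139 and 2770, whereas Krt7 and Krt19 lay within 2-fold. Sox9 itself had 8.87 in MHs, not well above background, and 60.7 in Sox9+EpCAM- cells, at least 1.45-fold higher. The lower markers were Aqp1 and Cftr, 2.59-fold and 2-fold. Leukocyte, endothelial and erythroid markers, with 8, 6 and 3 genes that had a value, had medians of -2.30, -2.50 and -2.10, and their summed levels were 25.5, 8.05 and 3.90 in MHs and 2.61, 2.46 and 0.585 in Sox9+EpCAM- cells. The part of these cell types in the chaperone values was not tested.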

How the data were processed

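RNA of 1 sample per group was labelled with Cy3 by a service provider, by a protocol that the labels call undisclosed, and hybridised to Agilent mouse arrays. The authors deposited the intensity of each spot as Feature Extraction 10.7.3.1 wrote it, background-subtracted and not normalized between arrays, with a flag for signals well above background. A further deposited table holds the authors' ratio values, each the processed intensity over its array's median (96.5 and 164). Design coordinates are on mm9, with no exon annotation of that build used here.

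Control spots and spots flagged as outliers on either array (1 of a member) were left out, log2 intensities had the array's 75th percentile subtracted and spots of a probe were averaged. The brightest probe, by its mean over both arrays, stood for a gene. A size of 2-fold or 4-fold was the rule for counts, since no test is possible. Members, locations and gene lists were chosen with earlier results of these data known. Named with values were the main chaperones and regulators, members with a difference of at least 4-fold by any probe and genes of the lists; other members were named after their values were seen. All 86 names are RefSeq symbols. The alternatives were normexp (limma 3.58.1, R 4.3.3, offset 50), 5 other scalings, other probe rules, outlier spots kept, plain differences and only genes above background on both arrays. Python 3.11.15, pandas 2.3.3 and numpy 2.4.6 were used, and the steps were tested on simulated data. The columns of samples outside the series numbered 0.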

Additional observations from a re-analysis of the deposited data

How the results depend on the processing

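Against 9 members at least 4-fold higher and 2 lower, normexp correction gave 5 and 1, and the 75 members above background on both arrays gave 5 higher, where 3.94% of the genes were. The count of 4-fold lower members was 1 with the median of all probes (1.22%, against 5.22% of the genes). It was 5 with the probe of the largest difference (6.10%, against 6.81%), near the share of the genes. Against 17 at least 2-fold higher and 6 lower, 27 were higher without scaling and 11 of the 75 above background on both arrays (14.7%, against 11.8% of the genes), while 11 were lower with scaling to Gapdh and 16 in the authors' table. No scaling moved the median of the genes by 0.45, scaling to Gapdh by -0.13 and the authors' table by -0.18, and the counts moved with it. No difference of a main gene of at least 2-fold changed its sign under any alternative, whereas Dnajb6 went from -1.33 to 1.28 with the median of all probes and 3.84 with the probe of the largest difference. Among the main genes, those of Sqstm1, Atf4, Pdia6, Dnaja1 and Hsf1 moved by more than 1.5-fold with the probe rule, normexp or the plain difference. Other causes were not tested. No paired analysis was possible because there is 1 array a group, and for the same reason leaving out a replicate and a slide block were not run. A signal under about 27.8 in MHs and 18.4 in Sox9+EpCAM- cells could not be measured.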
